A study of Danio rerio with 2 samples.

Results

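Heat shock proteins and chaperones, the proteins that fold other proteins and keep damaged ones from clumping, were followed here in brain tissue of zebrafish of both sexes. The genes were taken by a pattern of symbols that uses no expression value, although the family was picked for study with earlier results of these data known: heat shock proteins (hsp, hsc70), DNAJ proteins, the cytosolic chaperonin (cct, tcp1), co-chaperones (st13, stip1, bag, ahsa, ptges3), FK506-binding proteins (fkbp), the endoplasmic reticulum (ER) chaperones calr, canx and pdia, and the heat shock factors (hsf). They filled 109 of the 27423 rows of the table, which are 108 of 27095 genes once rows with the same Entrez ID are joined. Of these genes 95 had reads in at least 1 library and 91 reached a mean of 1 CPM and are called measured. CPM stands for the scaled reads relative to the mean of the male and female library totals. Brain tissue of 5 fish was pooled for each sex, all of wild-type genotype, and each pool gave 1 library. There is therefore no replicate spread and no test. Values in brackets are the log2 ratio of the male to the female library, negative where the female library was higher, with an exact Clopper-Pearson 95% interval of counting error alone. Read counts put the male library first.

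As background, HSP70 proteins bind unfolded stretches with the help of DNAJ proteins, which deliver substrates and start the ATP cycle, and of exchange factors such as the BAG proteins. HSP90 receives many of these substrates, steroid hormone receptors among them, through co-chaperones such as Stip1 and the FK506-binding proteins. Heat shock factors switch on the stress-inducible members when proteins unfold in the cytosol, while neurons depend on constitutive members for synaptic proteins. In the ER a separate set folds secreted and membrane proteins, and Hsp47 is a chaperone specific to collagen.

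Most chaperone genes stood at nearly the same level in both sexes, as did most measured genes. The exceptions were few and mostly on the female side. Calls over all measured genes leaned that way too, with 399 female-side and 156 male-side genes at 2-fold. Hsp47 had 104 reads in males against 484 in females, a 4.36-fold difference (interval 3.53 to 5.46), and the ciliary gene dnajb13 had 57 against 134. Dnajb13 reached the minimum of 1 CPM only through the female library, and fell under 2-fold with the trend of the ratio on expression removed. Of 5 genes named here as stress-inducible, chosen after their values were seen, hsp70l, hsp70, dnajb1a and dnajb1b also lay lower in the male library. They did so by less than 2-fold, and bag3 lay slightly higher. Apart from bag3 they lay below the members' median of 52.9 CPM, where 13.5% of all measured genes reached 1.5-fold in either direction. These 5 are not a full list of inducible genes, so no share of inducible genes can be read from them. The members with the most reads, not corrected for gene length, were hsp90ab1 with 47318 against 54146 reads, dnajc5aa with 29626 against 30512 and hspa8 with 27612 against 29834, and these differed little. On the male side the immunophilin gene fkbp5 had the widest ratio among members above the median read level, with 20227 against 15128 reads.

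At 2-fold or more with an interval that excludes 1, 2 of 91 measured members were called higher in the female library, where 2.7% of all 14756 measured genes were, and 0 in the male library, where 1.06% were. At 1.5-fold the counts were 5 members higher in the female library against a background of 6.09%, and 1 in the male library against 2.8%. These shares are near the background. Over all measured genes the calls split into 156 male-side and 399 female-side genes at 2-fold and 413 and 899 at 1.5-fold. With the trend of the ratio on expression removed, these became 203 and 328, and 564 and 673. Of the measured members 83 (91.2%) lay within 0.5 of a log2 ratio of 0, compared with 88.9% of all measured genes. The member median was -0.03 (quartiles -0.19 and 0.07), against -0.0015 over all measured genes (quartiles -0.15 and 0.12). In 57 members (62.6%, against 50.3% of all measured genes) the ratio was under 0 and in 34 it was above. The interval lay wholly below 0 for 38 members (41.8%, against 30.8% of all measured genes) and wholly above 0 for 23 (25.3%, against 31.5%). An interval narrows with more reads, and 46 of 91 measured members but 5422 of 14756 measured genes lay at or above 52.9 CPM. Such shares of intervals, here and below, were not matched for depth. Members together held 0.831% of male and 0.857% of female reads before scaling. After scaling their summed levels were nearly equal, at 8432 CPM (male) and 8448 CPM (female).

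**Figure D1:**
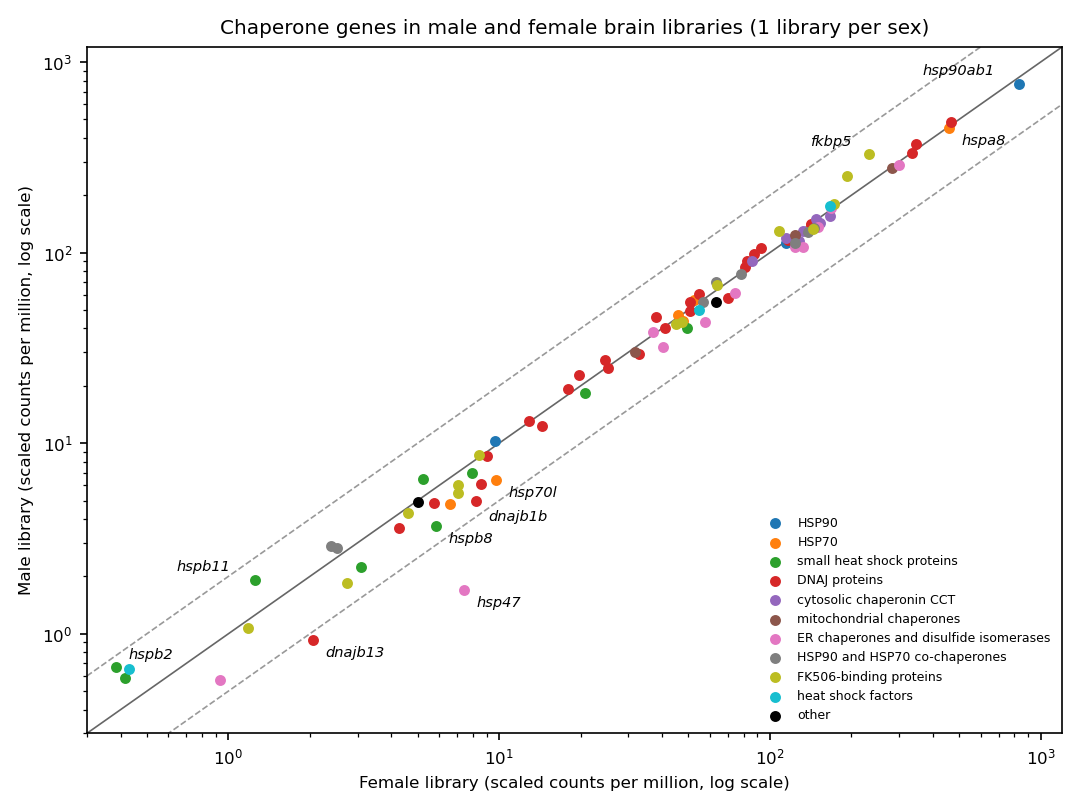
Scaled CPM of the 95 chaperone genes with reads, female library on the horizontal and male library on the vertical axis, both logarithmic, 1 point per gene coloured by role group. The solid line marks equal levels and the dashed lines 2-fold; hsp47 and dnajb13 lie beyond the lower dashed line, at 1.69 against 7.42 and 0.929 against 2.05 CPM (male first).

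The differences lay among members with fewer reads, a split by read number that is not corrected for gene length and does not rank expression. Above the members' median of 52.9 CPM, 0 of 46 members reached 1.5-fold in either direction, where 0.959% of all measured genes at such levels did. Below it 6 of 45 members (13.3%) did, against 13.5% of all measured genes there. The nearest members on either side of the 2-fold line were dnajb13, at -1.14, and dnajb1b, at -0.71.

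**Figure D2:**
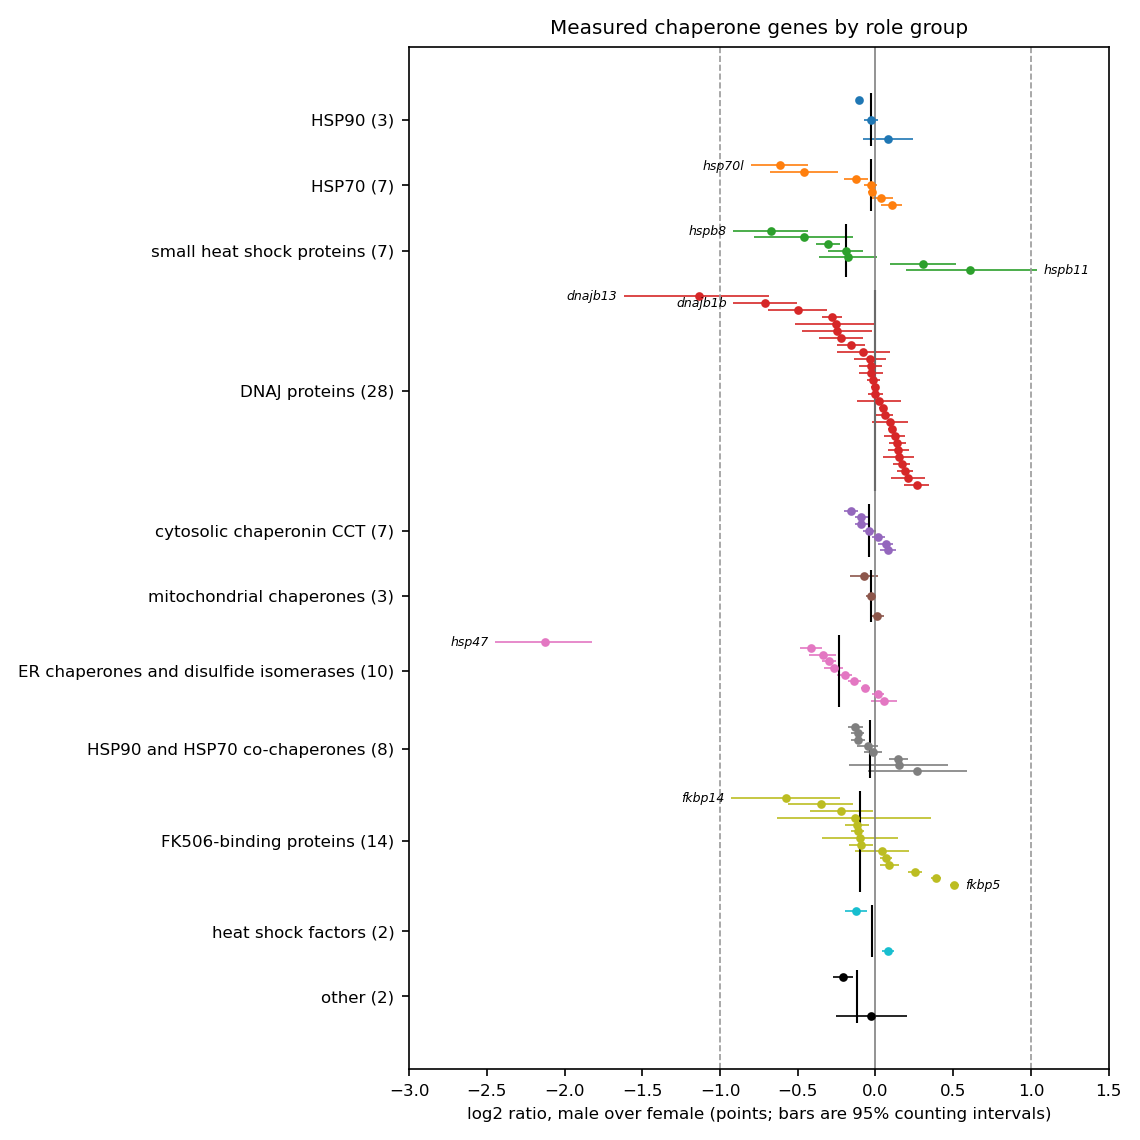
Log2 ratio of male over female for the 91 measured chaperone genes, 1 point per gene with its 95% counting interval, in role groups with the number of measured genes in brackets. Black bars are group medians and dashed lines mark 2-fold; the ER group median is -0.23, the small heat shock protein median is -0.19, and the remaining groups of chaperones, co-chaperones and heat shock factors have medians between -0.10 and -0.002.

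Hsp47, now named serpinh1b, encodes the ER-resident serpin that binds the collagen triple helix and is needed for collagen secretion. The gene lies on chromosome 15 of the Zv9 build, from 28732298 to 28736506 on the minus strand, and no other gene with reads overlaps it. Its 104 male and 484 female reads correspond to 1.69 and 7.42 CPM, and the log2 ratio was -2.12 (interval -2.45 to -1.82), the widest difference among the 91 measured members. The genes on either side did not share its direction. The photoreceptor guanylate cyclase gene gucy2f, at lower coordinates, had 185 against 87 reads (1.17, interval 0.80 to 1.56). LOC560645, now gdpd5b, at higher coordinates, had 8339 against 8579 (0.05, interval 0.00 to 0.09). One gene beyond gucy2f, tsku, which encodes a secreted leucine-rich protein, had 1118 against 1994 (-0.75, interval -0.85 to -0.64).

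Its paralog serpinh1a, listed as zgc:171630, also encodes an Hsp47 protein and stood at 101 against 183 reads (-0.77, interval -1.13 to -0.41), so both copies were lower in the male library. Serpinh1a shares the direction of hsp47 but not its size, since their intervals do not overlap. Reads that match both copies could have been assigned to either, since the treatment of such reads is not given in the sources used here. Collagen itself differed less. Per 100 reads of the type I collagen genes col1a1a, col1a1b and col1a2, the male library held 2.06 hsp47 reads and the female library 7.66. Col1a1a had 1160 against 1692 reads (-0.46, interval -0.57 to -0.35), col1a1b 2377 against 2766 (-0.13, interval -0.21 to -0.05) and col1a2 1513 against 1858 (-0.21, interval -0.31 to -0.11).

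In the list of collagen genes and collagen-modifying enzymes, 19 of 26 named genes were measured and 0 reached 2-fold. At 1.5-fold 2 were higher in the female library (10.5%, against 6.09% of all measured genes), namely serpinh1a and col2a1a. The list median was -0.14, against -0.0015 for all measured genes. Below 0 lay 13 genes of the list (68.4%, against 50.3% of all measured genes), and 6 lay above. Its measured genes with most reads were sparc, a collagen-binding matrix glycoprotein, with 4203 against 5270 reads (-0.24, interval -0.30 to -0.18), and col1a1b. The prolyl 4-hydroxylase subunit genes p4ha1b (0.29, interval 0.20 to 0.38) and p4ha2 (0.40, interval 0.29 to 0.51), which modify collagen prolines, went the other way. So did a collagen gene, col5a2a, with 2430 against 2270 reads (0.19, interval 0.10 to 0.27).

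Markers of several other tissues, but not of all, lay in the same direction as hsp47. Photoreceptor markers were higher in the male library (51.2 against 16.4 CPM), skeletal muscle markers went both ways and neuron markers were level in their sum. All 8 liver and yolk markers were at least 2-fold higher in the female library, with summed levels of 28.2 CPM (male) and 1495 CPM (female), and so were all 4 egg markers, at 1.42 and 59.7 CPM. Of 6 fibroblast and meningeal markers 5 were measured, 0 of these reached 1.5-fold and all 5 were below 0, with 173 and 225 CPM. Among the 5 are col1a1a, col1a1b and col1a2, whose values are given above, and the interval of lum held 0 (-0.58 to 0.16). The marker col5a1 was listed at 0. All 5 measured proliferation markers were below 0 too, 4 of them past 1.5-fold and 2, plk1 (-1.85) and cdc20 (-1.48), past 2-fold, with summed levels of 66.0 and 93.2 CPM. Mki67 was listed at 0. The part of these tissues and of dividing cells in the hsp47 result was not tested. In whole tissue, fewer cells of a type and less RNA per cell cannot be told apart.

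**Figure D3:**
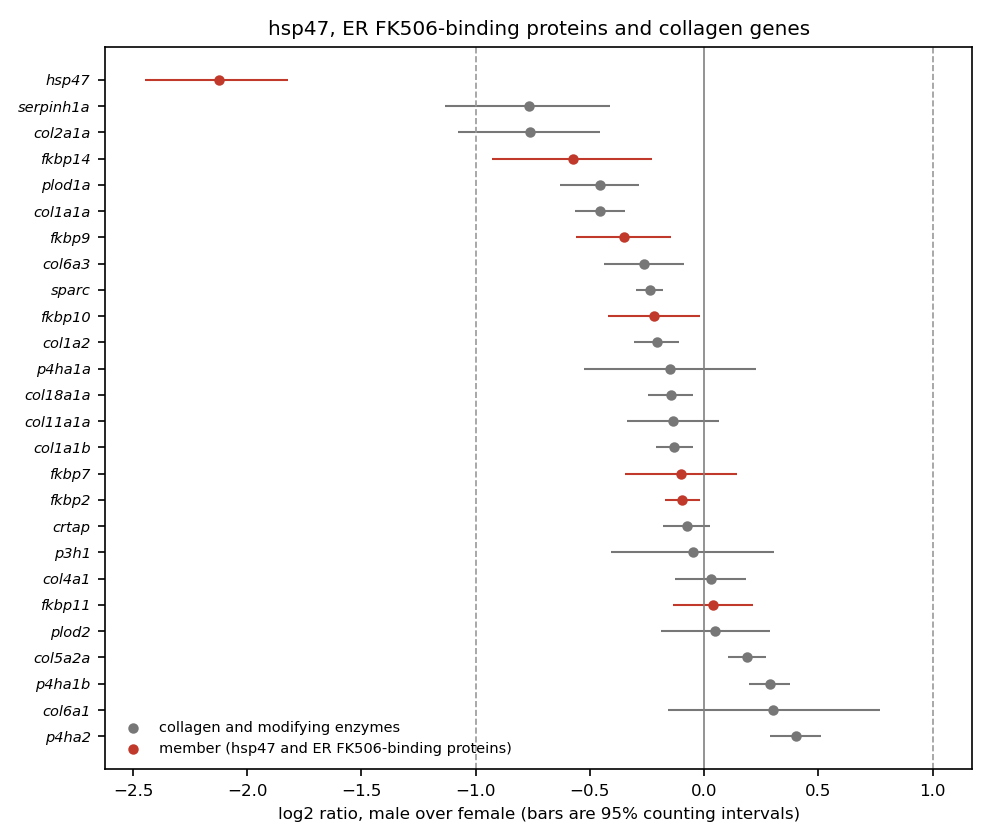
Log2 ratio of male over female with 95% counting intervals for hsp47 and 6 FK506-binding proteins of the ER (red) and for the 19 measured genes of the collagen list (grey), ordered by ratio. Hsp47 at -2.12 lies beyond the dashed 2-fold line and its interval does not overlap that of serpinh1a at -0.77 or of any other gene shown.

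The ER group, which holds hsp47, leaned toward the female library, with small ratios in its other measured genes. Of 12 ER members 10 were measured, and 8 of these, hsp47 among them, had intervals wholly below 0 and 0 wholly above. The group median, hsp47 included, was -0.23. Over all measured genes 30.8% had intervals wholly below 0 and 31.5% wholly above. These shares were not matched for read number, on which the width of an interval depends. The liver, yolk and egg markers given with hsp47 lay in the same direction as these 8 genes, and their part in the ER values was not tested. Pdia4, a disulfide isomerase, had 2647 against 3755 reads (-0.42, interval -0.49 to -0.34). Among the calreticulin genes, which encode lectin chaperones, calrl, now calr3b, had 1957 against 2633 reads (-0.34, interval -0.42 to -0.25) and the row named calr with reads, now calr3a, had 3782 against 4844 (-0.27, interval -0.33 to -0.21). Calrl2, which is now calr, was level at 10493 against 11020 reads (0.02, interval -0.02 to 0.06), and its sign turned with library totals as the scale or with the expression trend removed. Its interval does not overlap those of calrl and calr3a, which overlap each other.

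Hsp90b1, the HSP90 of the ER, had 6579 against 8615 reads (-0.30, interval -0.35 to -0.25). Pdia3, the isomerase that works with calreticulin, had 6600 against 8055 (-0.20, interval -0.25 to -0.15), and hspa5, the ER HSP70 also called BiP, had 8374 against 9795 (-0.14, interval -0.18 to -0.10). The membrane lectin gene canx was closer to level, with 17591 against 19571 reads (-0.07, interval -0.09 to -0.04), and pdia5 had 2357 against 2411 (0.06, interval -0.03 to 0.14). Pdia2, a pancreatic isomerase in mammals, was under 1 CPM with 35 against 61 reads.

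Of 3 DNAJ partners of the ER given here as examples, 2 were higher in the male library. These 2 were named for the widest male-side ratios among DNAJ members, so their direction was set by how they were chosen. Over all measured genes 31.5% had intervals wholly above 0. The 3 are not a full list of ER DNAJ genes, so no share can be read from them. Dnajb11, a BiP co-chaperone, had 2806 against 2484 reads (0.26, interval 0.19 to 0.34), the highest ratio among DNAJ members. Dnajc3, now dnajc3a, also an ER-luminal BiP partner, had 1394 against 1282 (0.21, interval 0.10 to 0.32). Dnajc10, an ER reductase that acts with BiP, had 1812 against 2151 (-0.16, interval -0.25 to -0.07) and went the other way.

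The wider list of the unfolded protein response and ER folding, which holds no member, had a median near 0 but more genes below 0 than above. Of its 32 named genes 31 were measured, 0 reached 2-fold and the median was -0.04. At 1.5-fold 1 was higher in the female library (3.23%, against 6.09% of all measured genes) and 0 in the male library, against 2.8%. Below 0 lay 21 genes (67.7%, against 50.3% of all measured genes), and 10 lay above. Intervals lay wholly below 0 for 11 (35.5%, against 30.8%) and wholly above 0 for 6 (19.4%, against 31.5%). Its genes with most reads were atf4b, a stress-induced transcription factor listed as atf4b2, with 18751 against 17621 reads (0.18, interval 0.15 to 0.21), and the unfoldase gene vcp, with 14419 against 16272 (-0.09, interval -0.12 to -0.05). The gene past 1.5-fold was rcn3, a calcium-binding protein of the secretory pathway, with 180 against 299 reads (-0.64, interval -0.92 to -0.37). The sensor target xbp1 had 7343 against 8574 reads (-0.14, interval -0.18 to -0.09).

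Among cytosolic HSP70 genes the stress-inducible copies and the constitutive gene differed. Hsp70l, an inducible gene of chromosome 8, had 391 against 638 reads (-0.62, interval -0.80 to -0.43), and hsp70, now hsp70.3, on chromosome 3 had 295 against 431 (-0.46, interval -0.68 to -0.24). Hspa8, the constitutive Hsc70 that also uncoats clathrin vesicles, was level at 27612 against 29834 reads (-0.02, interval -0.05 to 0.00). Reads of hsp70 and hsp70l together came to 2.48 per 100 hspa8 reads in males and 3.58 in females. The read levels were unlike, with means of 8.08 CPM for hsp70l and 5.71 CPM for hsp70 against 454 CPM for hspa8. Over all measured genes the median ratio was -0.06 below 52.9 CPM and 0.05 at or above it. With the expression trend removed hsp70l stood at -0.51, under 1.5-fold, hsp70 at -0.34 and hspa8 at -0.09. HSP70 copies are similar in sequence, so the split of reads among them is uncertain.

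Other HSP70 family members were close to level. Hspa4a and hspa4b encode HSP110-type exchange factors, and had 3453 against 3417 reads (0.10, interval 0.04 to 0.17) and 8546 against 9279 (-0.03, interval -0.07 to 0.01). Hspa14, a ribosome-associated member, had 2685 against 3112 reads (-0.12, interval -0.20 to -0.05), and hspa13 had 2887 against 2989 (0.04, interval -0.04 to 0.11). Of the 8 members of this group 7 were measured, with a median of -0.03, and hspa12b was listed at 0.

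DNAJ proteins formed the largest group, with 35 genes, of which 28 were measured and 7 were listed at 0. Their median was -0.002, with 13 above 0 and 15 below (53.6%, against 50.3% of all measured genes). Dnajb13, known from the radial spokes of cilia and sperm tails, had 57 against 134 reads (-1.14, interval -1.62 to -0.69), or 0.929 against 2.05 CPM, so it reached the minimum of 1 CPM through the female library. It fell under 2-fold, to -0.94, once the trend of the ratio with expression was removed.

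The paralogs dnajb1a and dnajb1b encode the inducible DNAJ partner of HSP70 in the stress response. Dnajb1b had 307 against 534 reads (-0.71, interval -0.92 to -0.50) and dnajb1a had 373 against 561 (-0.50, interval -0.69 to -0.31), so both were lower in the male library, as were hsp70 and hsp70l. Dnaja1l, now dnaja1, another cytosolic HSP70 partner, had 3550 against 4575 (-0.28, interval -0.34 to -0.21). Its relative dnaja2l, now dnaja2b, was level at 20558 against 21908 reads (-0.00, interval -0.03 to 0.02), as was dnajb6a, a suppressor of protein aggregation, at 7158 against 7615 (-0.00, interval -0.05 to 0.05).

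The cysteine string protein and auxilin genes, known from synapses, differed little and in both directions. Dnajc5aa encodes cysteine string protein, the synaptic vesicle chaperone, and had 29626 against 30512 reads (0.05, interval 0.02 to 0.07, under 0 with the expression trend removed). Dnajc6, which encodes auxilin, the clathrin-uncoating partner of Hspa8, had 22798 against 22538 (0.11, interval 0.08 to 0.13). The related dnajc5ga had 5578 against 5386 (0.14, interval 0.08 to 0.19) and dnajc5gb had 220 against 279 (-0.25, interval -0.52 to 0.01).

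The mitochondrial import partner gene dnajc15 had 6001 against 5680 reads (0.17, interval 0.12 to 0.22), and its relative dnajc19 had 802 against 841 (0.02, interval -0.12 to 0.16). Mitochondrial dnaja3a had 3705 against 3560 (0.15, interval 0.08 to 0.21) and its paralog dnaja3b 1516 against 1651 (-0.03, interval -0.14 to 0.07). Dnajc7, a tetratricopeptide co-chaperone shared by HSP70 and HSP90, had 6461 against 6030 (0.19, interval 0.14 to 0.24). Dnajc12, which assists aromatic amino acid hydroxylases such as those that make dopamine and serotonin, had 758 against 939 (-0.22, interval -0.36 to -0.08). None of these reached 1.5-fold.

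Small heat shock proteins, which hold unfolding proteins in solution, had a median absolute log2 ratio of 0.31. All their measured genes lay below 52.9 CPM, where it was 0.19 for members and 0.18 for all measured genes. Of 9 genes 7 were measured, with a median of -0.19. Intervals lay below 0 for 4 (57.1%, against 30.8% of all measured genes) and above 0 for 2 (28.6%, against 31.5%). Hspb8, which works with Bag3 in selective autophagy, had 225 against 382 reads (-0.67, interval -0.92 to -0.43). Hspb3 had 138 against 202 (-0.46, interval -0.78 to -0.14), hspb15 had 2462 against 3238 (-0.31, interval -0.38 to -0.23), and hspb1, the Hsp27 gene, had 1119 against 1360 (-0.19, interval -0.31 to -0.08).

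On the male side of this group, hspb11, listed in RefSeq as hspb9l, had 118 against 82 reads (0.61, interval 0.19 to 1.04) and was the single member called at 1.5-fold in that direction. Scaled by library totals it fell to 0.57, under that line. The muscle-expressed hspb7 had 398 against 342 reads (0.31, interval 0.10 to 0.52) and hspb6, which overlaps another gene with reads, had 429 against 516 (-0.18, interval -0.37 to 0.01). The remaining 2 genes, hspb2 with 41 against 25 reads and hspb9 with 36 against 27, were under 1 CPM. Alpha-crystallins such as cryaa and cryabb are related to the small heat shock proteins, and muscle and lens also express genes of this kind. Skeletal muscle markers went both ways, with 3 of 8 at least 2-fold higher in males and 2 in females, and summed levels of 312 CPM (male) and 258 CPM (female). Of 5 lens markers 2 were measured, and 1, the small heat shock protein gene cryabb that muscle also expresses, was past 1.5-fold with 691 against 1194 reads (-0.70). The list summed to 40.2 CPM (male) and 46.7 CPM (female), of which the beta-crystallin gene cryba4 held 28.5 and 28.0 CPM. Cryaa had 1 against 1 read and mipa was listed at 0. The part of muscle or lens in these values was not tested.

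Cytosolic HSP90 genes were level within 1.1-fold. Hsp90ab1, the constitutive gene, had 47318 against 54146 reads (-0.11, interval -0.12 to -0.09). The tandem genes hsp90a.1 and hsp90a.2, now hsp90aa1.1 and hsp90aa1.2, lie 699 bases apart on the minus strand of chromosome 20. Hsp90a.2 had 6886 against 7471 reads (-0.03, interval -0.08 to 0.02) and hsp90a.1, known from zebrafish muscle where it folds myosin, had 627 against 630 (0.08, interval -0.08 to 0.24). Reads shared by these copies make their single values uncertain.

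Co-chaperones of HSP90 and HSP70 were also near level, with 8 of 11 measured, 0 past 1.5-fold and a median of -0.03. Stip1, which bridges HSP70 and HSP90, had 6926 against 8051 reads (-0.13, interval -0.18 to -0.08), and st13, the Hip protein that stabilises substrate-bound HSP70, had 8227 against 9477 (-0.12, interval -0.16 to -0.07). Bag6 had 7884 against 9055 (-0.11, interval -0.15 to -0.07), while bag3, which is stress-inducible and partners Hspb8, had 4285 against 4114 (0.15, interval 0.09 to 0.21). Bag3 thus did not share the direction of hspb8 or of the inducible HSP70 and dnajb1 genes. Ahsa1l, now ahsa1b, an activator of the HSP90 ATPase, had 3360 against 3700 (-0.05, interval -0.12 to 0.02), and bag5 had 4767 against 5125 (-0.02, interval -0.07 to 0.04). With fewer reads, bag4 had 177 against 156 (0.27, interval -0.05 to 0.59) and ahsa1, now ahsa1a, 172 against 165 (0.15, interval -0.17 to 0.47), and both intervals hold 0.

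The heat shock factors themselves differed little. Hsf1, the main regulator of the heat shock response, had 10775 against 10848 reads (0.08, interval 0.04 to 0.12) and hsf2 had 3077 against 3567 (-0.12, interval -0.19 to -0.05). Hsf4, a lens factor, was under 1 CPM with 40 against 28 reads.

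FK506-binding proteins, peptidyl-prolyl isomerases that help proteins fold, went both ways. Fkbp5, which encodes the HSP90-bound immunophilin that lowers glucocorticoid receptor sensitivity and is itself induced by glucocorticoids, had 20227 against 15128 reads (0.51, interval 0.48 to 0.54). Fkbp4, its close relative in receptor complexes, had 8203 against 9445 (-0.11, interval -0.16 to -0.07). The male library held 2.47 fkbp5 reads for each fkbp4 read and the female library 1.60, a comparison in which gene length cancels. At 329.6 against 231.9 CPM, fkbp5 alone of the 46 members above the median read level lay more than 0.5 from 0. Within 0.5 lay 97.8% of members at such levels, near the 98.6% of all measured genes there. Fkbp5 fell under that line with library totals as the scale (0.47) or with the expression trend removed (0.44).

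The genes of FKBP12-type proteins, which bind calcium release channels and the drug FK506, were level or higher in the male library. Fkbp1ab had 15482 against 12559 reads (0.39, interval 0.36 to 0.42), whereas its paralog fkbp1aa had 11057 against 11229 (0.07, interval 0.03 to 0.10, and 0.00 with the expression trend removed) and fkbp1b had 4159 against 4155 (0.09, interval 0.03 to 0.15). Fkbp8, a mitochondrial outer membrane member, had 7952 against 7082 (0.26, interval 0.21 to 0.30).

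The ER-resident members were lower in the male library or level. Fkbp14 had 113 against 179 reads (-0.57, interval -0.93 to -0.23), fkbp9 had 338 against 459 (-0.35, interval -0.56 to -0.15) and fkbp10, now fkbp10b, had 370 against 458 (-0.22, interval -0.42 to -0.02). Fkbp10 and fkbp14 are known in humans for roles in collagen folding. Fkbp7 had 263 against 300 (-0.10, interval -0.35 to 0.14), fkbp2 had 2594 against 2946 (-0.10, interval -0.17 to -0.02) and fkbp11 had 530 against 548 (0.04, interval -0.13 to 0.22). The median of the 14 genes was -0.10, and it turned to 0.02 with the expression trend removed.

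The cytosolic chaperonin CCT is a ring of different subunits that folds actin and tubulin. The measured subunits kept within 0.16 of 0. From lowest to highest ratio, tcp1 had 7034 against 8351 reads (-0.16, interval -0.21 to -0.11), cct6a had 8787 against 9955 (-0.09, interval -0.13 to -0.05) and cct3 had 9605 against 10877 (-0.09, interval -0.13 to -0.05). Cct8 had 7950 against 8687 (-0.04, interval -0.08 to 0.00) and cct5 9196 against 9650 (0.02, interval -0.02 to 0.06), with a negative sign under library totals or without the expression trend. Cct4 had 7349 against 7470 (0.06, interval 0.02 to 0.11) and cct2 had 5566 against 5599 (0.08, interval 0.03 to 0.13). The intervals of tcp1 and cct2 do not overlap. Cct5 and cct6a each overlap another gene with reads, and without strand information their reads cannot be separated.

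The mitochondrial chaperonin genes hspd1 and hspe1, which encode Hsp60 and its lid Hsp10, stand head to head on chromosome 9, 832 bases apart. Hspd1 had 7620 against 8055 reads (0.01, interval -0.04 to 0.05) and hspe1 had 1844 against 2066 (-0.08, interval -0.17 to 0.02). Hspa9, the mitochondrial HSP70 that draws proteins into the matrix, had 17035 against 18517 (-0.03, interval -0.06 to -0.00). Hspd1 had a negative sign under library totals or without the expression trend.

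Symbols alone brought in 2 genes that are not chaperones and fit none of the role groups, which include the heat shock factors. Tcp11l1, a relative of a testis protein, had 3370 against 4140 reads (-0.21, interval -0.27 to -0.14). Hspbap1, named for binding a small heat shock protein, had 302 against 327 (-0.03, interval -0.26 to 0.20), with a positive sign once the expression trend was removed.

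Chaperone genes outside the symbol rule were as level as the members. In a list of 48 names of chaperones and co-factors, 34 genes that are not members were measured. Their median was -0.03 and 0 reached 2-fold. At 1.5-fold 1 was called, higher in the male library (2.94%, against 2.8% of all measured genes). That gene was smyd1b, which assists myosin folding in muscle, with 117 against 72 reads (0.78, interval 0.35 to 1.23). The genes with most reads were tomm70a, a mitochondrial import receptor that docks HSP70 and HSP90, with 14724 against 15196 (0.04, interval 0.01 to 0.08), and tbcb, a tubulin-folding cofactor, with 10145 against 11522 (-0.10, interval -0.13 to -0.06).

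No statement on expression can be made for 13 chaperone genes that the table lists at 0 in both libraries. They are cct7, hspa12b, dnaja2, dnajb6b, ptges3a, ptges3b, dnajc11, dnajc16, dnajc22, dnajc5b, dnaja, bag2 and the second gene named calr. Cct7 encodes a subunit of the same ring as the 7 measured CCT genes, and the lowest count among those was 5566 reads. Part of the zeros lay in long runs along chromosomes, which hold 1930 of the table's 10440 rows at 0. On chromosome 7 all 1319 rows from 6819342 (Zv9) to the end of the chromosome were listed at 0, and on chromosome 23 all 432 rows from 27177358 on. A run of 179 such rows closed chromosome 12, from 39690445 on, and all 37 rows of the mitochondrial genome were at 0. On the nuclear chromosomes other than 7, 12 and 23 the longest run was 49 rows. Of the 14 member rows at 0, 8 lay in the runs of chromosomes 7 and 23: cct7, hspa12b, dnaja2 and dnajb6b on chromosome 7, and ptges3a, dnajc11, dnajc16 and dnajc22 on chromosome 23. The other 6 member rows at 0, 2 of them for bag2, lay outside these runs on chromosomes 13, 22, 23, 24 and 25. Outside the 3 chromosome-end runs 5.94% of member rows were at 0, against 33.3% of all rows of the nuclear chromosomes there.

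**Figure D4:**
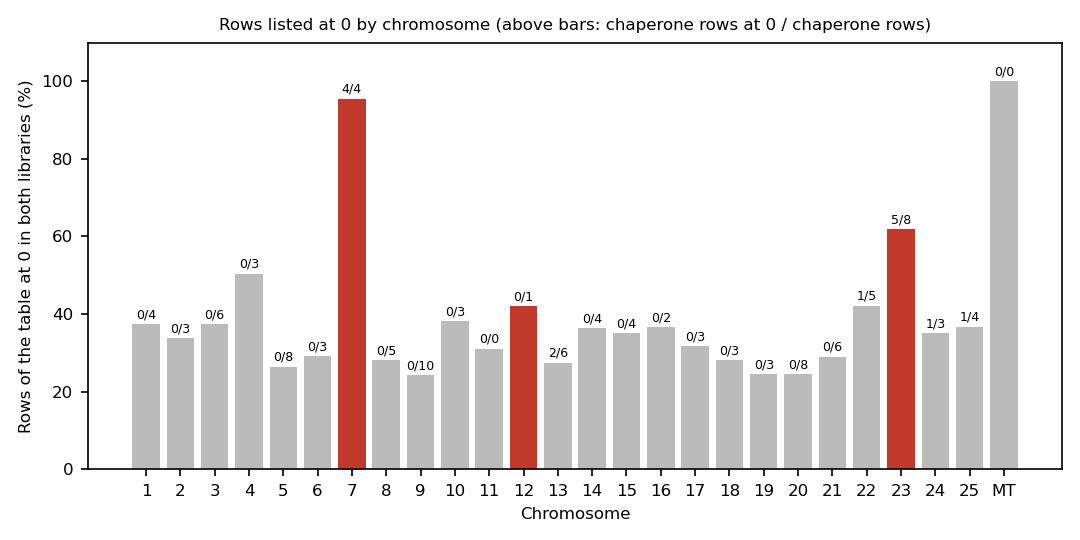
Share of the table's rows listed at 0 in both libraries, in percent, for each chromosome and the mitochondrial genome (MT), with the number of chaperone rows at 0 and of all chaperone rows above each bar. Red bars mark the chromosomes that end in a run of at least 100 rows at 0; chromosome 7 reaches 95.5%, with 4 of 4 chaperone rows at 0, and chromosome 23 61.9%, with 5 of 8.

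Library depth was 62248792 (male) and 64300988 (female) estimated counts. By counting error alone, a 0 is compatible with up to 3 reads, which is 0.0489 CPM for males and 0.0460 CPM for females, where a gene was counted at all. Neuron markers were present and level in their sum, with 2954 and 2880 CPM over 4 genes. Of these syt1a was higher in the male library (0.21, interval 0.19 to 0.23). Snap25a (-0.05, interval -0.07 to -0.04) and elavl4 (-0.05, interval -0.07 to -0.03) were slightly lower, and the interval of elavl3 held 0. Glial markers had 1333 and 1541 CPM over 4 genes. Photoreceptor markers were higher in the male library, at 51.2 against 16.4 CPM. Blood markers stood at 196 against 268 CPM.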

How the data were processed

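RNA from pooled brains of 5 fish per sex was sequenced as single reads of 51 bp, per the labels' protocols. The build Zv9, TopHat 1.4.1 and DESeq are named, without roles, per the submitters' processing notes. How reads were counted, on which annotation, with or without strand and with what rule for several matches is not given in the sources used here. The authors deposited estimated counts (headed raw, though few of the values above 0 were whole within 0.001, 1.56% for males and 1.92% for females) and the log2 of counts scaled by the authors. Estimated counts were summed by Entrez ID, rounded and scaled with median-of-ratios size factors (0.970 male, 1.03 female). The log2 ratio used an added count of 0.5. A gene was called at 2-fold, or at 1.5-fold, with a mean of at least 1 CPM and a 95% interval excluding 1. P-values were not computed. The members and lists were chosen with earlier results of these data known. By rule the text names hsp47, members called at 2-fold, per role group the 3 with most reads and the 2 widest each way among measured members whose interval excludes 0, and list genes at 2-fold or the 2 with most reads. Other genes were chosen after their values were seen, among them rcn3, smyd1b, the serpinh1a and collagen values and the neighbours of hsp47. Current symbols came from RefSeq (GRCz12tu) for 107 of 108 members. Promoter motifs were not analysed here. Reads were not corrected for transcript length, so orders and splits by read number describe counting depth, not expression between genes. The calculation was tested on simulated counts with counting noise alone. Spread between libraries and changes of 1.5-fold or 2-fold were not simulated. Alternatives were edgeR's TMM, library totals, the deposited log2 values, other minimum levels, an added count of 2, removal of a lowess trend (fraction 0.3) on expression, and rows kept apart. Software was edgeR 4.0.16 in R 4.3.3, and scipy 1.17.1, pandas 2.3.3, matplotlib 3.10.9, numpy 2.4.6 and statsmodels 0.14.6 in Python 3.11.15.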

Additional observations from a re-analysis of the deposited data

How the results depend on the processing

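The hsp47 ratio stayed between -2.17 and -1.99 under the 8 alternatives run, and the member median between -0.08 and -0.03. The 2 members called at 2-fold on the female side became 1 with the expression trend removed, when dnajb13 fell to -0.94, and 0 at a minimum of 5 CPM, since the mean levels of hsp47 and dnajb13 are below it. The male-side count was 0 at 2-fold in each alternative. At 1.5-fold the 5 female-side members became 2 at a minimum of 5 CPM, 3 with the trend removed and 6 with library totals or without a minimum level, and the 1 male-side member, hspb11, became 0 with library totals or at 5 CPM and 2 without a minimum level, when hspb2 joined it. All 10 role groups had a median under 0, and 9 did with the trend removed, the exception being the FK506-binding proteins. Of 245 values for 49 named members under 5 alternatives, 206 moved by no more than their counting error by at most 0.20 (dnajb13), and 39 by more, by at most 0.07. The sign changed in 5 members, none of them called, which are calrl2, cct5, hspd1, dnajc5aa and hspbap1. No paired analysis was possible because there is 1 library per sex, and no library could be left out. Depth limits members under about 100 reads, such as dnajb13 in the male library, hspb2, hspb9, hsf4 and pdia2.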
